A study of Homo sapiens with 12 samples.

Results

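The effect of an siRNA against OLR1 was examined in SZ95 sebocytes that received no lipid treatment. SZ95 cells are an immortalised line of human sebaceous gland cells, grown here in Sebomed medium. The comparison set 3 arrays of cells transfected with an OLR1 siRNA against 3 arrays of cells transfected with a scramble siRNA, so 6 of the 12 arrays of the study belonged to it and n = 3 in each group. The other 6 arrays came from cells that had either siRNA and, 24 h later, 25 µg/ml of UV-PAPC, an arachidonic-acid-containing phosphatidylcholine oxidised by ultraviolet light. All 12 samples had been transfected with Lipofectamine 2000, and the labels name no untransfected cells. Effects of lower OLR1 and of the siRNA or siRNAs on other transcripts therefore cannot be told apart. The sources used here give neither the sequence nor the number of the siRNAs. They do not say whether the replicates of a group came from separate cultures, so a p-value covers only the spread among these arrays, which may be technical. RNA was hybridised to whole-transcript expression arrays, and the deposited values were log2 signals per probe set. Every entry with exactly 1 gene symbol was used, with the brightest probe set kept for each gene, which gave 18417 genes from 33297 entries. A fold change is the difference of log2 group means, OLR1 siRNA minus scramble siRNA. A gene was said to rise or fall where its adjusted p from limma was below 0.05.

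OLR1 encodes LOX-1, a C-type lectin-like scavenger receptor on the cell surface. LOX-1 binds oxidised low-density lipoprotein and other modified ligands, and is best known from endothelial cells, where its engagement is linked to NADPH oxidase, MAP kinases and NF-kB. Sebocytes are the lipid-producing epithelial cells of the sebaceous gland: they divide at the edge of the gland, then stop dividing and fill with lipid. Progress through the cell cycle is tied to waves of transcription, with E2F factors driving genes of DNA replication at the G1/S boundary and the MuvB complex driving genes of mitosis through a short promoter element.

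The arrays were uniform. Array medians lay between 5.73 and 5.83, the correlation across genes was 0.9965 to 0.9973 between arrays of 1 untreated group and 0.9931 to 0.9946 between the groups, and no array stood apart. Of 6 epithelial markers 5 were among the brightest genes on all 6 untreated arrays, with KRT8 at the 99.8 to 99.9 percentile and the cadherin gene CDH1 at 99.4 to 99.5, and KRT14 lay at 45.3 to 51.5. The 14 sebocyte markers were spread widely. KRT7 lay at 99.1 to 99.4, the desaturase gene SCD at 97.6 to 98.4, PPARG at 81.0 to 84.2, MUC1 at 80 to 84.6, the fatty acid synthase gene FASN at 77.6 to 83.0 and the lipid droplet gene PLIN2 at 42.4 to 51.1, while the wax ester synthase gene AWAT2 lay at 11.5 to 16.9, the melanocortin receptor gene MC5R at 13.8 to 19.6 and the elongase gene ELOVL3 at 7.85 to 11.8. Ranks across genes also depend on the probes and are only a rough guide. None of 14 sebocyte markers, 6 epithelial markers or 8 fibroblast markers passed the threshold between the siRNAs, where 9.71% of all genes passed. In so few markers a missing call does not show that they were unchanged. Of the sebocyte markers 11 lay below 0 and 3 above, with a median of -0.08. For 4 of them all OLR1 siRNA arrays lay below all scramble arrays, as for 13.7% of all genes.

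The OLR1 signal read 6.18, 5.56 and 5.35 on the scramble arrays and 4.66, 4.38 and 4.48 on the OLR1 siRNA arrays. The groups did not overlap, and the spread was wider under the scramble siRNA, with means of 5.70 ± 0.44 and 4.51 ± 0.14 (SD, n = 3). OLR1 fell by 1.19 on the log2 scale (standard error 0.18, 95% confidence interval -1.57 to -0.81, adjusted p = 0.000484), a signal 2.28-fold lower. Without the first scramble array, the brightest for OLR1, the fall was 0.95, and it stayed past the threshold. In the UV-PAPC cells OLR1 fell by 1.40 (adjusted p = 0.000162). The difference between both falls was -0.21, with an interval from -0.75 to 0.33. OLR1 was a gene of modest signal in this line, between the 20.2 and 47.2 percentile of all genes on the 6 arrays, and a signal close to the floor of an array understates a fold change.

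OLR1 lies in a cluster of C-type lectin genes on chromosome 12. Of 17 measured genes of that cluster, OLR1 was the only one that passed the threshold, with 9.71% of all genes tested past it in either direction. The genes for the beta-glucan receptor dectin-1, CLEC7A (-0.03), the neighbouring CLEC1A (-0.07), CLEC1B (0.13), CLEC9A (0.01), CLEC12A (0.00) and CLEC12B (-0.05) had log2 differences near 0. The lectin-like genes CLEC2B (-0.14), CLEC2A (0.00), CLEC2D (0.07), CD69 (0.16), KLRD1 (0.11), KLRC1 (0.14), KLRB1 (0.20) and KLRG1 (-0.08) did not pass either, nor did TMEM52B (0.16) and GABARAPL1 (0.02). The lowest adjusted p among these 16 neighbours was 0.0855, for KLRB1. Apart from GABARAPL1, at 7.15, the neighbours were dim. Their mean signals on the scramble arrays ran from 2.85 (KLRD1) to 4.26 (CLEC2D), where the lowest value of any entry was 1.93. A fall of such dim genes could hardly be seen, so their missing calls say little about how specific the siRNA was.

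**Figure D1:**
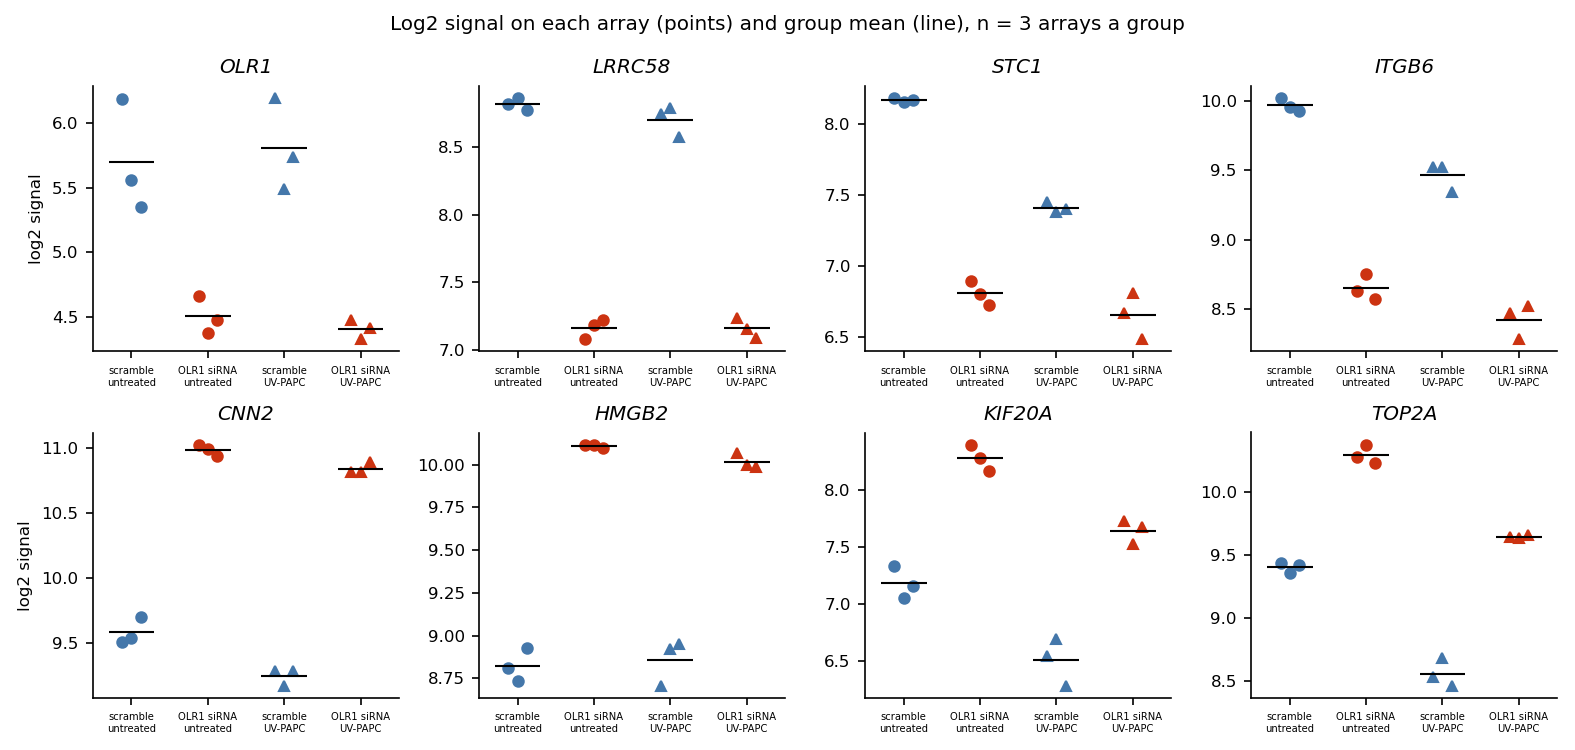
Log2 signal of 8 genes (vertical axes, each with its own range that does not start at 0) in the 4 groups of 3 arrays; points are arrays, blue for scramble and red for OLR1 siRNA, circles for untreated and triangles for UV-PAPC cells, and lines are group means. OLR1, LRRC58, STC1 and ITGB6 were lower on all 3 OLR1 siRNA arrays than on all 3 scramble arrays of the same treatment, and CNN2, HMGB2, KIF20A and TOP2A were higher.

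Across all genes 975 rose (5.29%) and 814 fell (4.42%). Most of these differences were small. The median rise was 0.34 on the log2 scale (1.27-fold) and the median fall was -0.38 (1.30-fold). Large changes were mainly falls: 27 genes fell and 6 rose by at least 2-fold, and 133 fell and 65 rose by at least 1.5-fold. The 3 arrays of each group lay apart for 967 of the genes that rose and 811 of those that fell, while 28.7% of all genes had groups that did not overlap. The median of all genes was -0.0014, a value that normalisation of the arrays holds near 0. The share of rises among calls depended on scaling: with arrays centred on their medians, which moved the median of all genes to 0.04, 1184 genes rose and 579 fell (67.2% rises against 54.5%). The number of rises also depended on single arrays. It was 528 without scramble replicate 2, 584 without scramble replicate 3, 606 without OLR1 siRNA replicate 1 and 536 without OLR1 siRNA replicate 2. The number of falls stayed between 565 and 685 in all 6 such fits, and 836 of the 1789 called genes passed in every one of them. Genes named below as having risen or fallen in untreated cells passed in all 6 unless the sentence says otherwise.

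The gene that fell most was LRRC58, a leucine-rich repeat protein gene. The scramble arrays read 8.82, 8.86 and 8.77 and the OLR1 siRNA arrays 7.08, 7.19 and 7.22, a change of -1.66 (standard error 0.07, adjusted p = 4.77e-09) or 3.15-fold lower. The arrays of each group lay within 0.2 of each other and the groups were far apart. STC1, which encodes the secreted glycoprotein stanniocalcin, stood at 8.18, 8.16 and 8.17 against 6.90, 6.80 and 6.72, a change of -1.36 (standard error 0.08). The scramble arrays come first here and in the pairs of values that follow. ITGB6, the beta subunit of the epithelial integrin that activates latent transforming growth factor beta, stood at 10.02, 9.96 and 9.93 against 8.63, 8.75 and 8.57, a change of -1.32 (standard error 0.08). For these genes too, every OLR1 siRNA array lay more than 1 log2 unit below every scramble array. CLDN1, the gene of the tight junction protein claudin-1, was among the brightest of the genes that fell, at 10.78, 10.59 and 10.75 against 9.61, 9.61 and 9.56, a change of -1.11 (standard error 0.08).

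Other leading falls came from varied parts of cell physiology. NEK7, a kinase of mitosis and of the NLRP3 inflammasome, fell by 1.35. SLC25A32, a mitochondrial carrier for folate, fell by 1.33. MOB1B, a coactivator of the LATS kinases in the Hippo pathway, and ATP6V0E2, a subunit gene of the vacuolar proton pump, each fell by 1.28. KIF3A, a kinesin motor of ciliary transport, fell by 1.17. CYGB, which encodes the globin cytoglobin, and SLC35D1, a nucleotide sugar transporter of the endoplasmic reticulum, fell by 1.16 each. ANKRD52, a regulatory subunit of protein phosphatase 6, fell by 1.15 and EPGN, the epidermal growth factor receptor ligand epigen, by 1.14. SLC26A2, a sulphate transporter, fell by 1.09, and TNFRSF11B, which encodes osteoprotegerin, the decoy receptor for RANKL, fell by 1.07. Adjusted p-values for these 11 genes lay between 7.07e-08 and 3.12e-05. The remaining genes that fell at least 2-fold were GRAMD1B (-1.05), CEMIP2 (-1.04), LIN7C (-1.03), DNAJB6 (-1.03), EFR3A (-1.02), CPEB4 (-1.02), MIGA1 (-1.02), ZNF460 (-1.01), ACSL1 (-1.01), CLDN12 (-1.0) and 1 uncharacterised locus. OLR1 itself ranked among these, with 8 genes falling further.

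The gene that rose most was CNN2, which encodes the actin-binding protein calponin 2. The scramble arrays read 9.51, 9.54 and 9.70 and the OLR1 siRNA arrays 11.02, 10.99 and 10.94, a rise of 1.40 (standard error 0.07, adjusted p = 1.10e-08) or 2.64-fold. HMGB2, a chromatin protein gene, stood at 8.81, 8.74 and 8.93 against 10.12, 10.12 and 10.10, a rise of 1.29. The OLR1 siRNA arrays of HMGB2 differed by only 0.02 among themselves. KIF20A, a kinesin needed for cytokinesis, stood at 7.33, 7.06 and 7.16 against 8.39, 8.27 and 8.16, a rise of 1.09, and HMMR, a spindle-associated hyaluronan receptor, rose by 1.08. DCP1A, a cofactor of mRNA decapping, rose by 1.04. TGS1, the enzyme that hypermethylates the caps of small nuclear RNAs, rose by 1.01.

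Below 2-fold, GAS2L3, a cytoskeletal linker of dividing cells, rose by 1.00, with 1 of its OLR1 siRNA arrays (7.07) well above the other 2 (6.52 and 6.41). The mitotic kinase gene CDK1 (0.91), the cytokinesis kinesin gene KIF14 (0.91) and the topoisomerase gene TOP2A (0.89) followed. The microtubule-binding gene NAV3 rose by 0.88, the centrosome gene CETN3 by 0.86, the nucleoside salvage kinase gene DCK by 0.84 and the activin antagonist gene FST by 0.82. SPRR2A, a cornified envelope gene, rose by 0.91, but near-identical SPRR2 copies can share its probe signal and make it uncertain. All 15 of the largest rises and 15 of the largest falls kept their direction and their call under every alternative in which they were tested. They had been picked on the same arrays for their size and call, which favours that outcome.

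**Figure D2:**
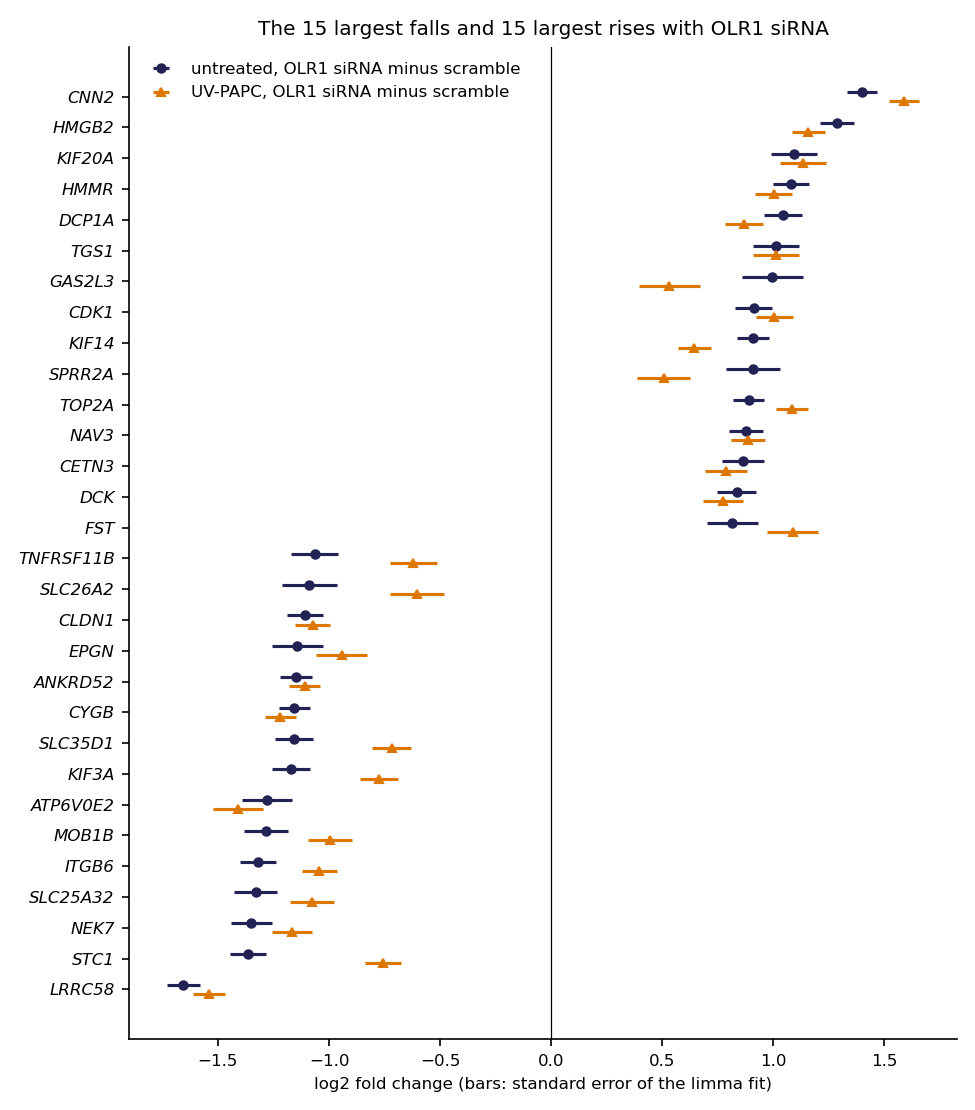
Log2 fold change (horizontal axis, OLR1 siRNA minus scramble siRNA) of the 15 genes with the largest rises and the 15 with the largest falls in untreated cells (OLR1 and 1 uncharacterised locus left out), dark circles for untreated and orange triangles for UV-PAPC cells; bars are standard errors of the limma fit. CNN2 was at 1.40 and LRRC58 at -1.66 in untreated cells, and every gene lay on the same side of 0 in both treatments.

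Genes of mitosis rose together. Of 80 measured genes of a G2/M and mitosis list, 54 rose, 1 fell and 25 did not pass the threshold, where 5.29% of all genes rose. The list median was 0.42, against -0.0014 over all genes, and stayed between 0.40 and 0.46 under all alternatives, the scalings included. Between 50 and 53 members rose when any 1 array was left out, and 48 rose in every such fit.

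The promoters of 4 mitotic genes with the lowest p-values on the list are shown, since these genes share a short element besides their rise. Each holds 250 bases before and 50 bases from the start site on, 5′ to 3′ on the strand of the gene (RefSeq, GRCh38.p14). Capitals mark TTTGAA, the core of the cell cycle genes homology region, and CCAAT, the element bound by NF-Y, on either strand, so that a match on the other strand reads TTCAAA or ATTGG. HMMR is at chr5:163460382-163460681 on the plus strand, TOP2A at chr17:40417847-40418146 on the minus strand, KIF14 at chr1:200620702-200621001 on the minus strand and CCNB2 at chr15:59104896-59105195 on the plus strand.
HMMR: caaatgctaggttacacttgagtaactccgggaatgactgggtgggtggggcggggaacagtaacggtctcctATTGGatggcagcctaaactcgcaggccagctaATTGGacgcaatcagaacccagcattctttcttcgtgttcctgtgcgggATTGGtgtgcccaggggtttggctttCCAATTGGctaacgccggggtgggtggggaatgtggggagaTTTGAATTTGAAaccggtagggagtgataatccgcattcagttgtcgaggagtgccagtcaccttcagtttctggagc
TOP2A: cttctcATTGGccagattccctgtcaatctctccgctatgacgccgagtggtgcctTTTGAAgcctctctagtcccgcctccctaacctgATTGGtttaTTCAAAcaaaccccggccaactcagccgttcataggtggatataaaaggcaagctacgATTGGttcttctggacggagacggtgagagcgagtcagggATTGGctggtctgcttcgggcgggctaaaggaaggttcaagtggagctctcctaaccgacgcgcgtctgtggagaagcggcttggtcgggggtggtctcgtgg
KIF14: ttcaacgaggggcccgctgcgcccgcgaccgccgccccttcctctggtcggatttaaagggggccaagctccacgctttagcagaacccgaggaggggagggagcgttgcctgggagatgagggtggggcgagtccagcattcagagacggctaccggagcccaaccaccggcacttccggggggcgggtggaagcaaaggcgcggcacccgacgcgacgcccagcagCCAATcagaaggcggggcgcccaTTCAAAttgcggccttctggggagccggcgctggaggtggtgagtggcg
CCNB2: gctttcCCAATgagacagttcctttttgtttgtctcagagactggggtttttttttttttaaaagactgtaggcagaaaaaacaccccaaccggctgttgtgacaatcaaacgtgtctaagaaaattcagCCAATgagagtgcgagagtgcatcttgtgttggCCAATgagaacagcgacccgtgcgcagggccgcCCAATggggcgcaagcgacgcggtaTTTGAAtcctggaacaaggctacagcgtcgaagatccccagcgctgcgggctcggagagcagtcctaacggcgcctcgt
In HMMR a tandem of TTTGAA begins 28 and 22 bases before the start site, and the run CCAATTGG holds overlapping CCAAT matches of both strands. CCNB2 has 1 TTTGAA at 29 bases before the start and 4 CCAAT that lie within the 250 bases before the start. TOP2A has TTTGAA at 194 and 151 bases before the start and 4 CCAAT, and KIF14 has 1 of each close to the start.

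The element was frequent in the list as a whole. TTTGAA was found in 45 of the 68 list promoters in RefSeq's table (66.2%), in 11.9% of the 14239 promoters of all tested genes, in 18.2% of those of genes that rose and in 7.99% of those of genes that fell. CCAAT was found in 72.1% of the list promoters and 36.3% of all. Of the 45 list genes with TTTGAA, 34 rose (median 0.44), and of the 23 without it 14 rose (median 0.32). Of the 49 with CCAAT, 39 rose (median 0.47), and of the 19 without it 9 rose (median 0.25). A match of 6 letters is a description of the sequence and shows no binding.

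Kinases and cyclins that drive entry into mitosis were higher. CDK1 stood at 7.28, 7.08 and 7.18 against 8.11, 8.17 and 8.0. Cyclin B2, CCNB2, rose by 0.80, cyclin A2, CCNA2, by 0.60 and cyclin B1, CCNB1, by 0.56. The Aurora A gene AURKA rose by 0.59 from 9.24, 9.24 and 9.21, while the Polo-like kinase gene PLK1 rose by 0.40 and the Aurora B gene AURKB by 0.30. Every OLR1 siRNA array of these genes lay above every scramble array, as for 967 of the 975 genes that rose and 15% of all genes.

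Structural genes of the kinetochore, spindle and chromosome rose as well. The kinetochore genes NDC80 and CENPE rose by 0.73 and 0.69, and the chromosome-alignment kinesin gene KIF18A by 0.69. The spindle genes NUSAP1 and TPX2 rose by 0.67 and 0.53, the checkpoint kinase gene TTK by 0.67, and the condensin gene NCAPD2 by 0.65. MKI67, the gene of the proliferation marker Ki-67, rose by 0.66 from 10.89, 10.87 and 10.96 to 11.56, 11.55 and 11.60. Not all mitotic genes moved. The transcription factor gene FOXM1 (0.08), the anaphase activator gene CDC20 (0.11) and the survivin gene BIRC5 (0.19) did not pass. PBK, a mitotic kinase gene, fell by 0.51 (adjusted p = 0.0058), at 7.97, 7.79 and 7.60 against 7.30, 7.24 and 7.30.

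Genes of DNA replication rose by less. Of 72 measured genes of a G1/S and DNA replication list, 35 rose (48.6%), 2 fell (2.78%) and 35 did not pass. The shares of all genes were 5.29% for rises and 4.42% for falls. The list median was 0.24 and stayed between 0.21 and 0.27 under all alternatives. Fewer of these calls held without single arrays: 20 genes rose without scramble replicate 2, 21 without OLR1 siRNA replicate 1, 20 without OLR1 siRNA replicate 2, and 17 in every such fit. The cyclin E2 gene CCNE2, which opens S phase, stood at 7.84, 7.68 and 7.68 against 8.61, 8.65 and 8.36, a rise of 0.80. CLSPN, a replication checkpoint mediator, rose by 0.75, the polymerase genes POLE2 and POLD3 by 0.54 and 0.50, ATAD2, a chromatin cofactor, by 0.49, and DUT and TYMS, enzymes of thymidylate supply, by 0.47 and 0.43. The helicase gene MCM6 rose by 0.40 and the sliding clamp gene PCNA by 0.37.

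The 2 falls of that list were upstream of S phase. CDK6, a partner of the D-type cyclins, fell by 0.54 (9.04, 9.06 and 9.10 against 8.52, 8.60 and 8.47) and the cyclin D1 gene CCND1 fell by 0.33. The transcription factor gene E2F1 was at 0.07 and did not pass. TTTGAA was found in 5.08% of the 59 promoters of this list, whereas GCGGGAA, an E2F-type element, was found in 39.0% and GCGCCAA, another, in 30.5%, against 8.95% and 4.21% of all promoters. Both strands were searched, and GCGCCAA followed by T overlaps CCAAT. Of the 23 genes with GCGGGAA 11 rose and of the 36 without it 17 rose, with medians of 0.22 and 0.24.

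Clustered histone genes, which are expressed mainly in S phase, were higher too: 18 of 41 rose (43.9%) and none fell, against 5.29% and 4.42% of all genes. The list median was 0.28. Between 12 and 16 rose when 1 array was left out, the lowest count without scramble replicate 2, and 11 rose in every such fit. H3C1 rose by 0.52 (7.36, 7.35 and 7.50 against 7.80, 8.0 and 7.96), H2AC4 and H3C12 by 0.49, H3C10 by 0.45 and the linker histone gene H1-5 by 0.35. Copies of one histone are near-identical and can share probe signal, so single members are uncertain. CCAAT was found in 89.2% of 37 histone promoters and in 36.3% of all promoters. In cell cycle genes a larger share of dividing cells and more RNA per dividing cell cannot be told apart in these bulk samples.

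Of 35 cell cycle inhibitors and p53 targets 2 rose (5.71%) and 3 fell (8.57%), near the 5.29% and 4.42% of all genes. The inhibitor gene CDKN1A was at -0.18 (adjusted p = 0.0972) and the p53 ligase gene MDM2 at -0.05. The members that fell were the actin regulator gene CYFIP2 (-0.48), the stress kinase gene PLK3 (-0.46) and the RNA-binding protein gene ZMAT3 (-0.45), and the DNA repair gene XPC rose by 0.41.

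**Figure D3:**
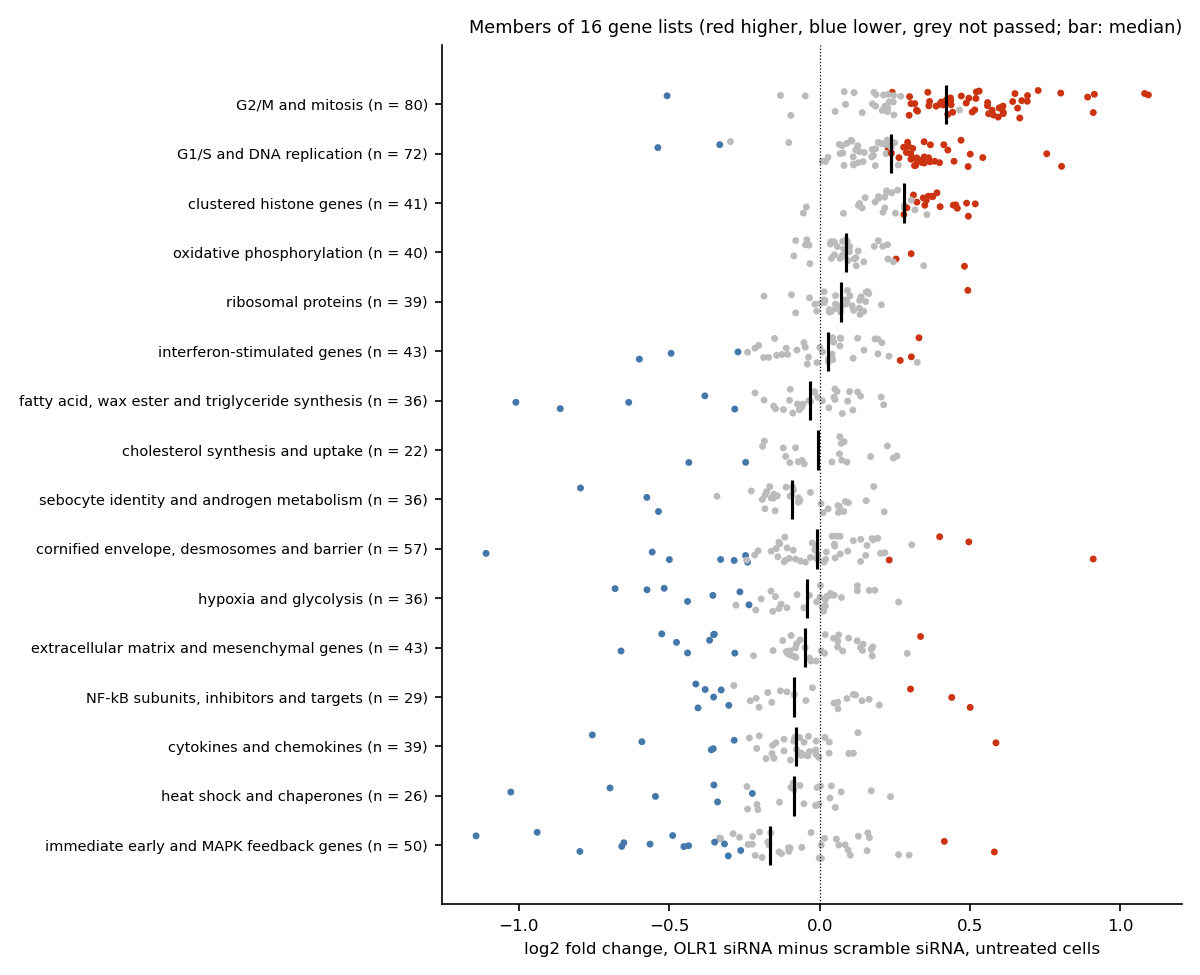
Log2 fold change in untreated cells (horizontal axis) of the measured members of 16 gene lists (rows, with the number of members), red for genes that rose, blue for genes that fell and grey for genes that did not pass the threshold; black bars are list medians. The G2/M list has its median at 0.42, the G1/S list at 0.24 and the histone list at 0.28, and the immediate early list has its median at -0.17.

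Some genes of growth factor signalling and its feedback fell. The list of immediate early and MAP kinase feedback genes had 50 measured members, of which 34 did not pass, 14 fell (28%) and 2 rose (4%), where 4.42% of all genes fell and 5.29% rose. It had a median of -0.17 that stayed between -0.19 and -0.12 under all alternatives. The count of falls was 9 without scramble replicate 3, and 8 genes fell in every fit with 1 array left out. The list holds 10 phosphatase genes of the DUSP family, which acts on MAP kinases. Of these 5 fell, 3 of them in every such fit, and none rose. DUSP10 stood at 9.66, 9.61 and 9.67 against 8.67, 8.84 and 8.61, a change of -0.94. DUSP7 fell by 0.80 and DUSP6 by 0.56. PHLDA1, an early response gene, fell by 0.66, and the transcription factor gene KLF6 by 0.45. The classical early genes FOS (-0.17) and EGR1 (-0.10) did not pass, and their groups overlapped.

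Ligands of the epidermal growth factor receptor moved in both directions. EPGN stood at 6.01, 5.88 and 6.07 against 4.86, 4.83 and 4.83, a change of -1.14, and the epiregulin gene EREG fell by 0.65. TGFA, transforming growth factor alpha, rose by 0.58, at 8.07, 7.87 and 7.98 against 8.70, 8.48 and 8.48. HBEGF, heparin-binding epidermal growth factor, fell by 0.49 (adjusted p = 0.016), a call that was lost without scramble replicate 3 or OLR1 siRNA replicate 2.

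A few genes that work with OLR1 or bind similar ligands changed. Of 27 scavenger and oxidised lipid receptor genes, 2 rose (7.41%) and 3 fell (11.1%), against 5.29% and 4.42% of all genes. TLR4, the lipopolysaccharide receptor gene, fell by 0.66 (7.61, 7.50 and 7.52 against 6.91, 6.81 and 6.94), the apolipoprotein E receptor gene LRP8 rose by 0.44 and CD68, a lysosomal glycoprotein gene, rose by 0.40. Among other genes of this list, MSR1 (0.02) and CD36 (0.02) had mean signals near 3 in both untreated groups. SCARB1 and CXCL16 were brighter, with means of 8.87 and 8.47 on the untreated scramble arrays. SCARB1 fell by 0.24 (adjusted p = 0.0432), a call that held in only 1 fit with 1 array left out. CXCL16 (0.13) did not pass. Of 29 partners and reported downstream genes of LOX-1, 1 rose (3.45%) and 3 fell (10.3%). The gelatinase gene MMP9 fell by 0.66 and the adhesion molecule gene ICAM1 fell by 0.38. The NADPH oxidase gene CYBB (0.05) did not pass.

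CD68 is also a leukocyte marker, and was the only 1 of 7 that passed. CD68 lay at the 93.2 to 95.9 percentile of genes on the untreated arrays, CD14 at 29.0 to 31.6, ITGAM at 30.0 to 35.7 and CD163 at 6.77 to 14.3. PTPRC, the gene of the pan-leukocyte antigen CD45, lay at 2.87 to 6.68, CD3E at 4.4 to 6.67 and LYZ at 4.3 to 7.9. CDH5, an endothelial cadherin gene, rose by 0.65 (7.91, 7.92 and 8.01 against 8.56, 8.67 and 8.55) and was the only 1 of 6 endothelial markers to pass. CDH5 lay at the 76.2 to 86.3 percentile, CLDN5 at 45.6 to 49.6 and the other 4, PECAM1, VWF, KDR and TEK, between 14.2 and 24.2. The part of other cell types in these changes was not tested. Of 6 melanocyte markers 1, MITF, rose (0.26), a call lost without scramble replicate 3 or OLR1 siRNA replicate 2.

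A few inflammatory genes were called. Of 39 cytokine and chemokine genes 5 fell (12.8%) and 1 rose (2.56%), against 4.42% and 5.29% of all genes, with 1 fall holding in every fit with 1 array left out: IL1B, interleukin 1 beta, at 7.07, 6.94 and 6.82 against 6.37, 6.10 and 6.10, a change of -0.76. TNFSF10, the gene of the death ligand TRAIL, rose by 0.59 from a low signal, and 1 of its OLR1 siRNA arrays (4.57) stood above the other 2 (3.98 and 3.96). IL6 (-0.18) and CXCL8 (-0.16) did not pass. Of 29 NF-kB genes, 6 fell (20.7%) and 3 rose (10.3%). NFKB1, a subunit gene of NF-kB, rose by 0.50 (8.98, 9.02 and 9.0 against 9.60, 9.56 and 9.34), while the NF-kB inhibitor gene TNFAIP3 fell by 0.40 and the urokinase gene PLAU by 0.35.

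Sensors of double-stranded RNA and interferon-stimulated genes gave no common rise. Of 29 genes of RNA sensing and its signalling, 4 fell (13.8%) and 1 rose (3.45%), against 4.42% and 5.29% of all genes. The sensor gene RIGI (-0.46) and the kinase gene IKBKE (-0.47) fell in every fit with 1 array left out. Of 43 interferon-stimulated genes 3 rose and 3 fell (6.98% each). The falls were GBP2 (-0.60), IFIT2 (-0.49) and MX1 (-0.27). The rises ranged from 0 without scramble replicate 2 or OLR1 siRNA replicate 2 to 3. IFNB1 (0.05), ISG15 (0.07) and IFIT1 (-0.08) did not pass. Of 19 genes of RNA interference 4 fell (21.1%) and 1 rose (5.26%). The Argonaute gene AGO3 fell by 0.44, DICER1, whose product cuts microRNA precursors, by 0.37 and the silencing cofactor gene TNRC6B by 0.39, while its paralog TNRC6A rose by 0.44. AGO2, the Argonaute that cuts siRNA targets, was at 0.01 and AGO1 at -0.02.

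Lipid genes, the hallmark of sebocytes, changed at a few points. None of 36 fatty acid, wax ester and triglyceride synthesis genes rose and 5 fell (13.9%). Of all genes 5.29% rose and 4.42% fell. ACSL1, a long-chain acyl-CoA synthetase gene, stood at 8.07, 8.03 and 7.95 against 6.97, 6.97 and 7.08, a change of -1.01. The elongase gene ELOVL7 fell by 0.86, the arachidonate-preferring synthetase gene ACSL4 by 0.63 and ME1, which supplies NADPH, by 0.38. The synthesis genes FASN (-0.12) and SCD (-0.22) did not pass, with an adjusted p of 0.075 for SCD. Of 22 cholesterol synthesis and uptake genes 2 fell (9.09%), MVD by 0.43 in every fit with 1 array left out. CPT1A, the gate of mitochondrial fatty acid oxidation, fell by 0.40, CH25H, which makes 25-hydroxycholesterol, by 0.36, and PTGER4, a prostaglandin E receptor gene, by 0.41.

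Among 36 sebocyte identity and androgen genes, 3 fell (8.33%) and none rose, against 4.42% and 5.29% of all genes. HSD3B1, a steroid dehydrogenase gene of the sebaceous gland, stood at 7.59, 7.12 and 6.92 against 6.49, 6.29 and 6.46, a change of -0.80. GATA3, a transcription factor gene of epithelial differentiation, fell by 0.57 and the cholesterol sulfotransferase gene SULT2B1 by 0.54. PPARG, the adipogenic nuclear receptor gene, was at -0.03 and MUC1, a sebaceous differentiation marker, at -0.07. Their groups overlapped.

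Adhesion, barrier and matrix genes held several of the larger changes. Of 27 keratin and adhesion genes 4 fell (14.8%) and 2 rose (7.41%), where 4.42% of all genes fell and 5.29% rose. Besides ITGB6, the collagen-binding integrin gene ITGA2 fell by 0.55 and KRT80 by 0.48, while the fibronectin-binding integrin gene ITGA5 rose by 0.45. Of 57 barrier genes 7 fell (12.3%) and 4 rose (7.02%). The falls that held in every fit with 1 array left out were CLDN1 and the protease gene KLK7 (-0.56). The rises that did so were SPRR2A and the ceramide transporter gene ABCA12 (0.50). Of 43 matrix and mesenchymal genes 8 fell (18.6%) and 1 rose (2.33%). The falls numbered 5 without scramble replicate 1 or OLR1 siRNA replicate 3. THBS1, thrombospondin 1, fell by 0.48 from 12.96, 12.93 and 12.97, and the myosin light chain gene MYL9 fell by 0.53.

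Some genes of tissue growth and oxygen pathways were called, more of them as falls than as rises. TEAD1, the DNA-binding partner of YAP, stood at 8.72, 8.72 and 8.82 against 7.89, 7.94 and 8.05, a change of -0.80. Of 28 genes of its list 6 fell (21.4%) and 3 rose (10.7%), where 4.42% of all genes fell and 5.29% rose. Falls numbered 3 without scramble replicate 2 or OLR1 siRNA replicate 1. The Hippo kinase gene LATS2 fell by 0.37, while the typical YAP targets CCN1 (0.15) and CCN2 (0.04) did not pass. TGFBR2, a receptor of transforming growth factor beta, fell by 0.64, and the bone morphogenetic protein antagonist gene NOG by 0.43. The Wnt antagonist gene DKK1 rose by 0.66 and the Notch target gene HES1 fell by 0.35. Of 36 hypoxia and glycolysis genes 7 fell (19.4%) and none rose, with 4 falls without OLR1 siRNA replicate 3. EPAS1, the gene of the oxygen-regulated factor HIF-2 alpha, fell by 0.68, ADM, adrenomedullin, by 0.57, the glucose transporter gene SLC2A3 by 0.52 and VEGFA, a blood vessel growth factor, by 0.36.

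Stress programmes were mixed. Of 26 heat shock and chaperone genes 6 fell (23.1%) and none rose, against 4.42% and 5.29% of all genes. The co-chaperone gene DNAJB6 stood at 10.06, 9.97 and 9.96 against 8.94, 8.97 and 8.99, a change of -1.03. HSPA6, an inducible chaperone whose probes can share signal with near-identical Hsp70 genes, fell by 0.70 and CACYBP by 0.55. HSP90AA1 (0.00) and HSPA8 (0.00), abundant chaperones, did not pass. Of 33 NRF2 targets 3 rose and 3 fell (9.09% each). The cystine transporter gene SLC7A11 fell by 0.57, and HMOX1, haem oxygenase 1, was at 0.26 with an adjusted p of 0.13. No rise of that list held without scramble replicate 2. Of 37 genes of the integrated stress response 3 fell (8.11%) and 2 rose (5.41%). TRIB3, a stress pseudokinase gene, was at -0.45 and the folate enzyme gene MTHFD2 at 0.40.

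Genes of the endoplasmic reticulum list fell in 5 of 31 cases (16.1%, against 4.42% of all genes). Only 1 or 2 of these calls were left in each fit without 1 array. EDEM3, a degradation factor of that compartment, fell by 0.48 in every such fit. Median differences were small in the housekeeping lists. Of 39 ribosomal protein genes 1 rose (2.56%), RPS13 by 0.49. Of 40 oxidative phosphorylation genes 3 rose (7.5%), NDUFA5 by 0.48 in every fit with 1 array left out. Of all genes 5.29% rose. In both lists 33 genes lay above 0. The list medians of 0.07 and 0.09 stayed above 0 under all alternatives, against -0.0014 over all genes. Relative to the scramble mean, the ribosomal list stood at 0.063, 0.007 and -0.067 on the scramble arrays. With OLR1 siRNA it stood at 0.077, 0.058 and 0.073, so the groups overlapped. The oxidative phosphorylation list stood at 0.035, 0.003 and -0.048 against 0.114, 0.084 and 0.055, without overlap. Proteasome genes rose in 2 of 28 cases (7.14%), and neither call held without OLR1 siRNA replicate 2. Of 44 autophagy and lysosome genes 3 rose (6.82%) and 1 fell (2.27%), the lysosomal membrane gene LAMP2 by 0.60. Of 18 metal-handling genes 2 rose (11.1%) and 3 fell (16.7%), and of 10 aryl hydrocarbon receptor genes 2 fell (20%). No call of either list held in every fit without 1 array.

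The same siRNA comparison in the UV-PAPC cells used the other 6 arrays, while the fit took 1 estimate of each gene's spread from all 12, so the calls of both comparisons are not independent. There 2302 genes passed (12.5%), of which 1462 rose (7.94%) and 840 fell (4.56%). Fitted on their own 6 arrays the UV-PAPC cells gave 1003 rises and 596 falls. In the fit of all groups the rises numbered 783 without scramble replicate 3 of the UV-PAPC cells, 769 without OLR1 siRNA replicate 1 and 970 without OLR1 siRNA replicate 3, and the falls 498 without OLR1 siRNA replicate 1. Of the 975 genes that rose in untreated cells, 956 were also above 0 and 723 rose. Of the 814 that fell, 792 were also below 0 and 429 fell, and no gene was called in opposite directions. The 1152 genes called the same way in both comparisons made up 64.4% of the calls in untreated cells and 50% of those in UV-PAPC cells. Of all genes 70.7% had the same sign in both, and of the genes called in untreated cells 97.7%.

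**Figure D4:**
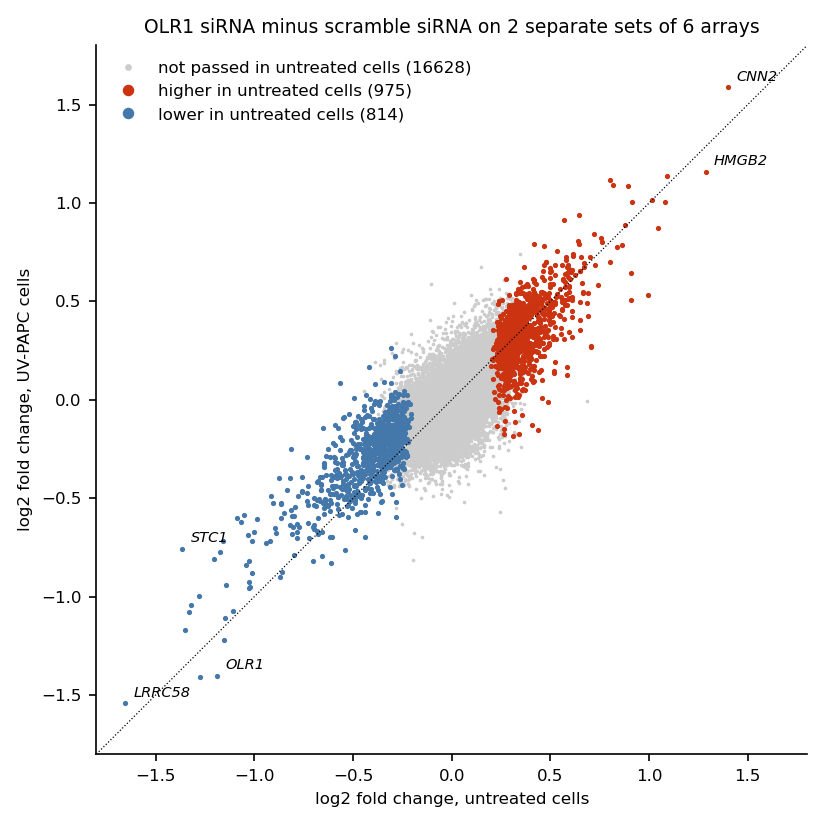
Log2 fold change, OLR1 siRNA minus scramble siRNA, of 18417 genes in untreated cells (horizontal axis) and in UV-PAPC cells (vertical axis), red for the 975 genes that rose and blue for the 814 that fell in untreated cells; the dotted line marks equal values. LRRC58, OLR1, CNN2 and HMGB2 lie near the line, and STC1 lies above it, at -1.36 and -0.76.

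All 33 genes that changed at least 2-fold in untreated cells were also called in the same direction in UV-PAPC cells. LRRC58 (-1.54) and CLDN1 (-1.07) fell there, and CNN2 rose by 1.59. Of the 27 large falls 24 were smaller in UV-PAPC cells. These genes had been picked by their size in untreated cells. Among all falls called in untreated cells 86.1% were larger there, and among falls called in UV-PAPC cells 62.1% were larger in those. For rises the shares were 54.9% and 80.6%. The scramble level of STC1 was itself lower with UV-PAPC, and STC1 fell by 1.36 in untreated and fell by 0.76 in UV-PAPC cells, a difference of 0.61 that did not pass after adjustment (adjusted p = 0.52).

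The test of the difference between both siRNA effects called none of the 18417 genes with limma (0%, lowest adjusted p = 0.52), and no alternative called any. At an unadjusted p below 0.05 there were 1004 genes (5.45%). The 5 genes with the lowest p were STC1, the small nucleolar RNA gene SNORD12C (-0.10 and 0.59), the protease gene CTSO (0.15 and 0.68), MLLT11 (-0.81 and -0.25) and PRDM16-DT (-0.15 and -0.70), with the effect in untreated cells first, and each had an adjusted p of 0.52. A missed threshold does not show that the effects were equal.

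Mitotic genes rose in both treatments. In UV-PAPC cells 63 of the 80 rose, where 7.94% of all genes rose, and PBK again fell. The list median there was 0.38, and 52 genes of the list rose in both. By array, the list median relative to the mean of the untreated scramble arrays was 0.44, 0.44 and 0.35 with OLR1 siRNA in untreated cells. In UV-PAPC cells the scramble arrays stood at -0.26, -0.17 and -0.39 and the OLR1 siRNA arrays at 0.13, 0.08 and 0.14. The siRNA groups did not overlap in either treatment, and the OLR1 siRNA arrays with UV-PAPC lay between the untreated scramble and untreated OLR1 siRNA arrays. Replication genes rose in 49 of 72 cases with UV-PAPC, with a median of 0.29, and all 35 that rose in untreated cells rose there too.

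Fewer histone genes were called with UV-PAPC. Of the 18 that rose in untreated cells 17 were above 0 and 2 rose with UV-PAPC, where the list median was 0.14. Those 2 were the only rises among the 41 genes there, where 7.94% of all genes rose. The difference between the treatments was not tested for the list. By array the list stood at 0.26, 0.27 and 0.34 with OLR1 siRNA in untreated cells. In UV-PAPC cells the scramble arrays stood at -0.26, -0.23 and 0.00 and the OLR1 siRNA arrays at -0.06, -0.11 and 0.09, so the groups overlapped there. No single histone gene passed the test of the difference. For H3C1, at 0.52 and 0.14, that test gave an unadjusted p of 0.00983 and an adjusted p of 0.88. Of the 14 immediate early and feedback genes that fell in untreated cells, 10 also fell in UV-PAPC cells, DUSP7 by 0.79 and PHLDA1 by 0.80 among them. In the whole list of 50 genes 13 fell and 4 rose there, against 4.56% and 7.94% of all genes. Several inflammatory genes called in untreated cells were near 0 with UV-PAPC. TNFAIP3 was at -0.06, IFIT2 at 0.01 and CACYBP, of the chaperone list, at -0.09, and none of these differences passed after adjustment.

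**Figure D5:**
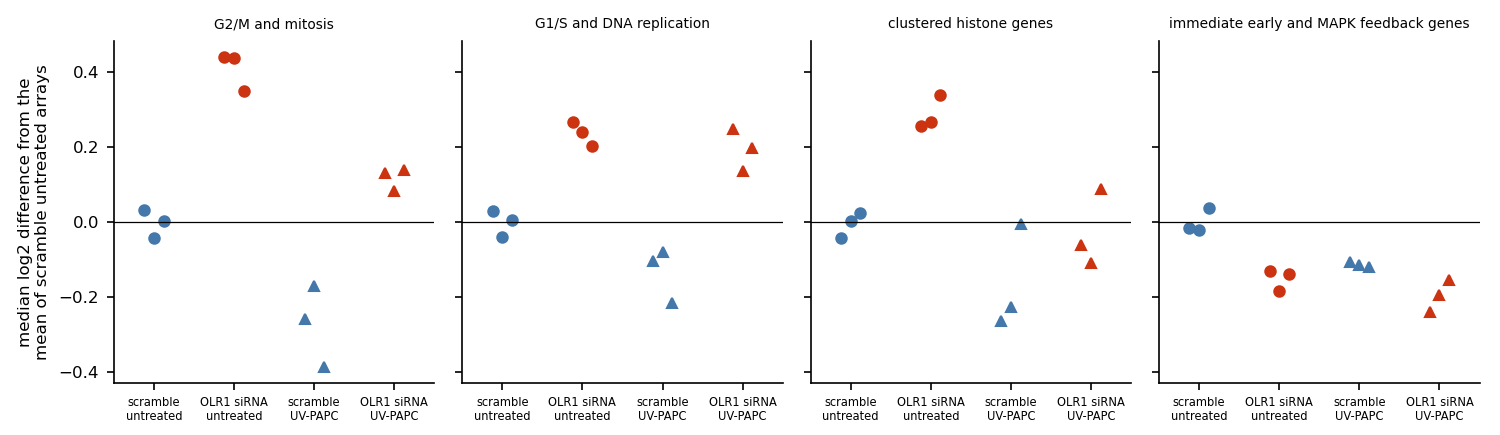
Median over a list's genes of the log2 difference from the mean of the 3 untreated scramble arrays (vertical axis) for 4 gene lists on each of the 12 arrays, blue for scramble and red for OLR1 siRNA, circles for untreated and triangles for UV-PAPC cells. G2/M genes with OLR1 siRNA lie at 0.35 to 0.44 in untreated cells and at 0.08 to 0.14 with UV-PAPC, above the scramble arrays of the same treatment in both.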

How the data were processed

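RNA (100 ng) was labelled with the WT PLUS kit for HuGene 1.0 ST arrays, per the labels. Per the submitters' processing notes, the authors used Affymetrix Expression Console 1.3.1.187 and RMA, which gave 1 log2 signal for each probe set and array. These deposited log2 values were taken unchanged. RMA compresses large fold changes. Neither the settings of RMA nor how long the cells met UV-PAPC is given in the sources used here. Of 33297 entries, 19460 carried 1 gene symbol in the array annotation, which can be old. For 769 genes with several probe sets the one with the highest mean was kept. The number of arrays limits the precision.

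A linear model of the 4 groups over the 12 arrays was fitted in limma 3.58.1 (R 4.3.3), with default eBayes (8 residual and 7.66 prior degrees of freedom), moderated two-sided tests and p-values adjusted by Benjamini-Hochberg over the 18417 genes of each of 3 comparisons: the OLR1 siRNA effect in untreated cells, that in UV-PAPC cells, and their difference. The code was tested on simulated data. Genes named were OLR1, the 15 largest rises and falls among calls whose arrays did not overlap (small RNA genes and uncharacterised, antisense or readthrough loci left out, 0 among rises and 1 among falls), the 5 lowest p-values in the difference, the other genes past 2-fold and members of 43 gene lists (1373 genes, 1261 measured). Of the lists' members, mostly those with larger changes were named (1 item is not reported here), and members without a call were named as well-known examples. Members and lists were chosen with earlier results of these data known, so a list's count is a description. Promoters came from RefSeq's table. Python 3.11.15 with matplotlib 3.10.9 drew the figures.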

Additional observations from a re-analysis of the deposited data

Results flagged for a closer look

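Entries outside the gene-level comparison were called as well, at lower shares than all entries. In a fit of all 33297 table entries, 836 were higher and 818 were lower with OLR1 siRNA in untreated cells. Of the 1754 entries with several gene symbols, 36 were higher and 40 were lower. Of the 12083 entries with no gene symbol, 146 were higher and 189 were lower. None of the entries with several or no symbols was assigned to a gene here. Apart from the fit of all entries, they enter no count of the report.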

How the results depend on the processing

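The fit was repeated with a trended or a robust prior, with weights per array, on the brighter genes, on averaged probe sets, on all entries, under 3 further scalings between arrays, on the 6 arrays of a comparison, with a replicate block and without each array. In untreated cells they gave 836 to 1280 rises and 579 to 1020 falls, the fits without 1 array aside. Without 1 array the rises ran from 528 to 828 and the falls from 565 to 685, with more falls than rises without scramble replicate 2 or OLR1 siRNA replicates 1 or 2. In UV-PAPC cells the rises ran from 769 to 1437 and the falls from 498 to 863 without 1 array, and centring arrays on their medians left 505 falls. The cause of these shifts was not tested. The OLR1 change was -1.36 to -0.946 without 1 array and -1.19 to -1.15 otherwise, past the threshold in each fit that held it. Its mean signal kept it out of the fit of brighter genes. The test of the difference called 0 genes in every fit. With the replicate block 955 genes rose and 801 fell in untreated cells. Deviations of same-numbered untreated arrays correlated at 0.04, -0.13 and -0.03, so the numbers were not taken to pair the samples. Arrays in another order correlated more. Untreated scramble 2 and OLR1 siRNA 3, with UV-PAPC scramble 3 and OLR1 siRNA 2, correlated at 0.18 to 0.27 with each other. Untreated scramble 1 and OLR1 siRNA 2, with UV-PAPC scramble 2 and OLR1 siRNA 1, did so at 0.11 to 0.21. A block in that order was not fitted. The 30 leading genes other than OLR1, picked on these same arrays, kept their direction and call in all 506 combinations of a gene and an alternative. Signals near the array floor limit what can be seen of dim genes, OLR1 among them.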

Other observations

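Mediator genes, whose products link transcription factors to RNA polymerase II, stood out when genes were counted by the stem of their symbol, a grouping made after the values were seen. Of 28 genes with the stem MED 7 rose, none fell and the median log2 difference was 0.19. MED11 rose by 0.48, MED4 by 0.44, MED28 by 0.38, MED13 by 0.38 and MED14 by 0.35, and these 5 passed in every fit with 1 array left out. Among the 44 stems with at least 25 tested genes the kinesin stem KIF had the highest share of rises, with 11 of 38 (28.9%), and MED came next with 25%. KIF5B, a motor of cargo transport outside mitosis, rose by 0.33, while KIF3A (-1.17) and the axonal motor KIF21A (-0.45) fell. Of 365 solute carrier genes with the stem SLC 27 fell (7.4%) and 3 rose (0.822%), against 4.42% and 5.29% of all genes. The stems RAB (13%), CYP (8.51%), RNF (8.0%) and KIF (7.89%) had higher shares of falls. Besides the 3 largest falls, the monocarboxylate transporter gene SLC16A7 (-0.70), the taurine transporter gene SLC6A6 (-0.62) and the inositol transporter gene SLC5A3 (-0.58) fell in every such fit. None of 43 collagen genes and 41 genes with the stem RPL passed.

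MicroRNA genes had few calls. Of 173 microRNA genes 3 rose and 3 fell (3.47%), and 1 of these, MIR331 (-0.54), passed in every fit with 1 array left out. Of 175 small nucleolar RNA genes 10 rose and 1 fell (6.29%), none in every such fit. Of 20 small nuclear RNA genes 3 rose and 1 fell (20%), and RNU4-2, a spliceosomal RNA gene, rose in every such fit, from 5.82, 5.44 and 5.36 with scramble siRNA to 5.97, 6.31 and 6.39 with OLR1 siRNA (0.69). Protein-coding genes passed in 10.2% of cases. Genes that rose and genes that fell were both brighter than the rest, with median scramble signals of 7.73 and 7.66 against 6.36 for all genes. Their median genomic spans were 37.8 and 34.4 kb, against 24.5 kb. By chromosome the share of genes called ran from 4.89% on chromosome 19 to 13.2% on chromosome 5. No test was made of these counts.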
